A study of Mus musculus with 4 samples.

Results

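The 10 genes described here encode chains of cytokine receptors. They are the interleukin receptor chains Il7r, Il4ra, Il10ra, Il6ra and Il2rg, the interferon gamma receptor chain Ifngr1, the TGF beta receptors Tgfbr1 and Tgfbr2, and the TNF receptors Tnfrsf1a and Tnfrsf1b. They were chosen by symbol, for what they encode, with earlier results of these data known, and are 10 of the 31053 genes in the files, each in 1 row. Live immune cells, positive for the pan-hematopoietic marker CD45 and negative for propidium iodide, had been sorted from 3 mm excisional skin wounds of mice labelled C57BL6/J in every library, Angptl4+/+ (WT) or Angptl4-/- (KO), at 1 or 5 days post wounding (dpw). Each of the 4 combinations of genotype and day is 1 droplet library of 3′ transcript ends, and how many mice went into a library is not given. The KO mice came from another source than the wild-type mice, so that genotype and origin of the animals cannot be told apart.

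With 1 library per group, no difference between groups was tested. Each level is a sum of unique molecular identifiers (UMIs, one per captured transcript) over the cells of a class and library, given per 1000000 UMIs of those cells (CPM), and each interval is an exact 95% interval that covers counting error only. A log2 ratio of 1 or more in size, a doubling or a halving, is called past the fold. The share of all genes past the same fold stands beside each count of receptor genes.

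Angptl4 itself was at 47 and 78 UMIs in the WT libraries at 1 and 5 dpw and at 0 UMIs in both KO libraries. The methods of the study describe male mice. Xist, the RNA of the inactive X chromosome, was detected in 2115 to 2856 cells of each library, whereas the Y-linked genes Ddx3y, Eif2s3y and Kdm5d were at 0 UMIs in all 4 libraries and Uty at 3 UMIs in 1 of them. The libraries thus go against the stated sex, in all groups alike. Of 20069 barcodes, 19827 passed the filters, 4738 to 5346 per library, with a median of 3736 to 4976 UMIs. The classes, named from marker genes, held 13802 neutrophil-like, 4185 macrophage-like, 704 monocyte-like, 565 dendritic cell-like, 516 natural killer (NK) cell/T cell-like cells (NK/T-like hereafter) and 55 cells like B cells. Each cluster was given the class whose marker list it scored highest for, with exceptions that applied to no cluster here. A cluster was to stay without a class if its 10 leading genes held more markers of another class than of its own. The same held if too few markers were detected, or if depth was low and no marker of its class was among those genes. Within the macrophage-like class, 421 cells of low depth (median 1191 UMIs, 148 and 132 cells in WT and 121 and 20 in KO wounds, 1 dpw first) were led by the neutrophil genes S100a8 and Retnlg. Among the 10 leading genes of other sub-clusters of the class, cells led by Vcan (370 cells) held the monocyte markers Chil3 and Vcan and no macrophage marker. Cells led by Retnla held Mgl2, a marker of Cd209a dendritic cells. A macrophage marker was also missing from these genes in cells led by Retnla, by Cxcl10, by Ltc4s and by S100a8. Cells led by Sema3c held Arg1, and cells led by C1q genes held C1qa, C1qb, C1qc and Ms4a7. The monocyte-like class held 552 cells led by Ace, but also 117 cells with the markers of Xcr1 Clec9a dendritic cells and 33 with those of plasmacytoid dendritic cells, so that its receptor values are given by sub-cluster where these differ.

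Cytokine receptors work as pairs or larger sets of chains. IL-7 binds the product of Il7r together with the common gamma chain encoded by Il2rg, and thymic stromal lymphopoietin (TSLP) binds the same Il7r chain paired with Crlf2; both signal through JAK kinases and STAT5. Il4ra pairs with Il2rg for IL-4 and with Il13ra1 for IL-13. Il10ra pairs with Il10rb, Il6ra with Il6st, and Ifngr1 with Ifngr2. Tgfbr2 binds TGF beta and activates the kinase Tgfbr1, which phosphorylates Smad2 and Smad3. Tnfrsf1a carries a death domain, whereas Tnfrsf1b does not and binds the TRAF adaptors directly. Il7r is best known for the survival of lymphocytes. Because only 3′ ends were counted, transcripts for membrane-bound and soluble forms of a receptor cannot be told apart.

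The sequences below are shown because Il7r had the largest differences between days among the 10 genes in macrophage-like cells and Il2rg encodes its partner for IL-7. GGAAG, read on either strand (CTTCC on the other), is the core that Ets-family transcription factors, among them PU.1 of myeloid cells and GABP, recognise. RefSeq promoters (GRCm38.p6, 250 bases before to 50 after the gene start) were found for 9 of the 10 genes, all but Il10ra. Capitals mark the match, and every sequence is a 30-base stretch of the minus strand, 5′ to 3′. The Il7r stretch lies at chr15:9529907-9529936, the first Il2rg stretch at chrX:101268437-101268466 and the second at chrX:101268253-101268282.
Il7r: cttttgctcagaCTTCCtgtttctggcact
Il2rg, first: gttcagcagagcCTTCCtggacctagggtc
Il2rg, second: gttctttccaccGGAAGctacgacaaaagg
The matches start 48 bases before the RefSeq start of Il7r and 199 and 15 bases before that of Il2rg. The Il7r stretch and the first Il2rg stretch overlap no exon of their gene in GENCODE M21, whereas the second Il2rg stretch reaches into its first exon but into no coding part. The Il7r stretch lies inside the GENCODE span of its gene (9505788 to 9530176, minus strand). It is thus before the RefSeq start but not before the GENCODE one. The 5 letters are common: 71.1% of 27025 promoters hold them on one strand or the other, as do 8 of the 9 receptor promoters. The longer match CAGGAAG, also read on either strand, stands in the Il7r stretch and in the first Il2rg stretch. It is held by 13.0% of all promoters and by 4 of the 9, those of Il6ra, Tgfbr1, Il7r and Il2rg. A match is a description of these letters and not a measured binding site.

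Il7r (ENSMUSG00000003882; GRCm38 chromosome 15, 9505788 to 9530176, minus strand) encodes the IL-7 receptor alpha chain. In neutrophil-like cells its level was 2.08 CPM (1.49 to 2.82) in WT wounds at 1 dpw, 2.65 CPM at 5 dpw, and 1.20 and 1.87 CPM in KO wounds at 1 and 5 dpw, from 22 to 41 UMIs per library. These amounts were 0.305% to 3.01% of the level in the macrophage-like cells of the same library. For 8 genes of macrophages (C1qa, C1qb, C1qc, Mrc1, Arg1, Fn1, Ms4a7 and Apoe) the same percentage ran from 0.104% to 2.08% over the 4 libraries. Il7r was inside the range of these genes in 3 libraries and above it in WT wounds at 5 dpw, where the highest of them was at 2.08%. It was above their median in each library, at 0.511%, 3.01%, 0.305% and 1.44% against 0.237%, 0.505%, 0.122% and 0.267% (WT 1 dpw, WT 5 dpw, KO 1 dpw, KO 5 dpw). The value of WT wounds at 5 dpw rests on 23 UMIs in 13 cells. Of these UMIs, 16 were in 6 cells of the cluster led by Slc6a13. Dendritic cell-like and NK/T-like cells of that library held Il7r at 272 and 316 CPM, and the percentage leaves them out. Their part was not tested. The Ace-led monocyte-like cells held 17 Il7r UMIs (7.50 CPM) and 2 UMIs (1.10 CPM) in the WT and KO libraries at 1 dpw, and 0 UMIs in both libraries at 5 dpw, which allows up to 2.97 and 2.61 CPM.

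Macrophage-like cells held Il7r at 408 CPM (394 to 421) in WT wounds and 394 CPM (378 to 410) in KO wounds at 1 dpw. At 5 dpw the levels were 88.1 CPM (83.1 to 93.4) and 130 CPM (122 to 138). With every cell thinned to 1000 UMIs, an Il7r UMI was found in 24.8% (22.2 to 27.5) and 25.6% (22.6 to 28.9) of macrophage-like cells at 1 dpw and in 5.58% (4.48 to 6.87) and 10.1% (7.85 to 12.7) at 5 dpw. The unthinned shares were 51.5%, 47.3%, 17.5% and 30.6% in the order WT 1 dpw, KO 1 dpw, WT 5 dpw and KO 5 dpw, at median depths of 6834, 5833, 8348 and 11544 UMIs per cell. Neutrophil-like cells, as a class with little Il7r, had a UMI in 0.116% to 0.233% of thinned cells and in 0.456% to 0.797% of unthinned cells, at median depths of 3219 to 4683 UMIs. Dendritic cell-like cells held Il7r at 514 and 598 CPM at 1 dpw and 272 and 345 CPM at 5 dpw (WT first), and NK/T-like cells at 476 and 422 CPM and at 316 and 356 CPM. At 1 dpw the macrophage-like level thus lay below that of both other classes in point value, though its upper bounds (421 CPM in WT and 410 CPM in KO wounds) were above the lower bounds of NK/T-like cells (398 and 351 CPM). At 5 dpw it was below the lower bound of both in either genotype.

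**Figure D1:**
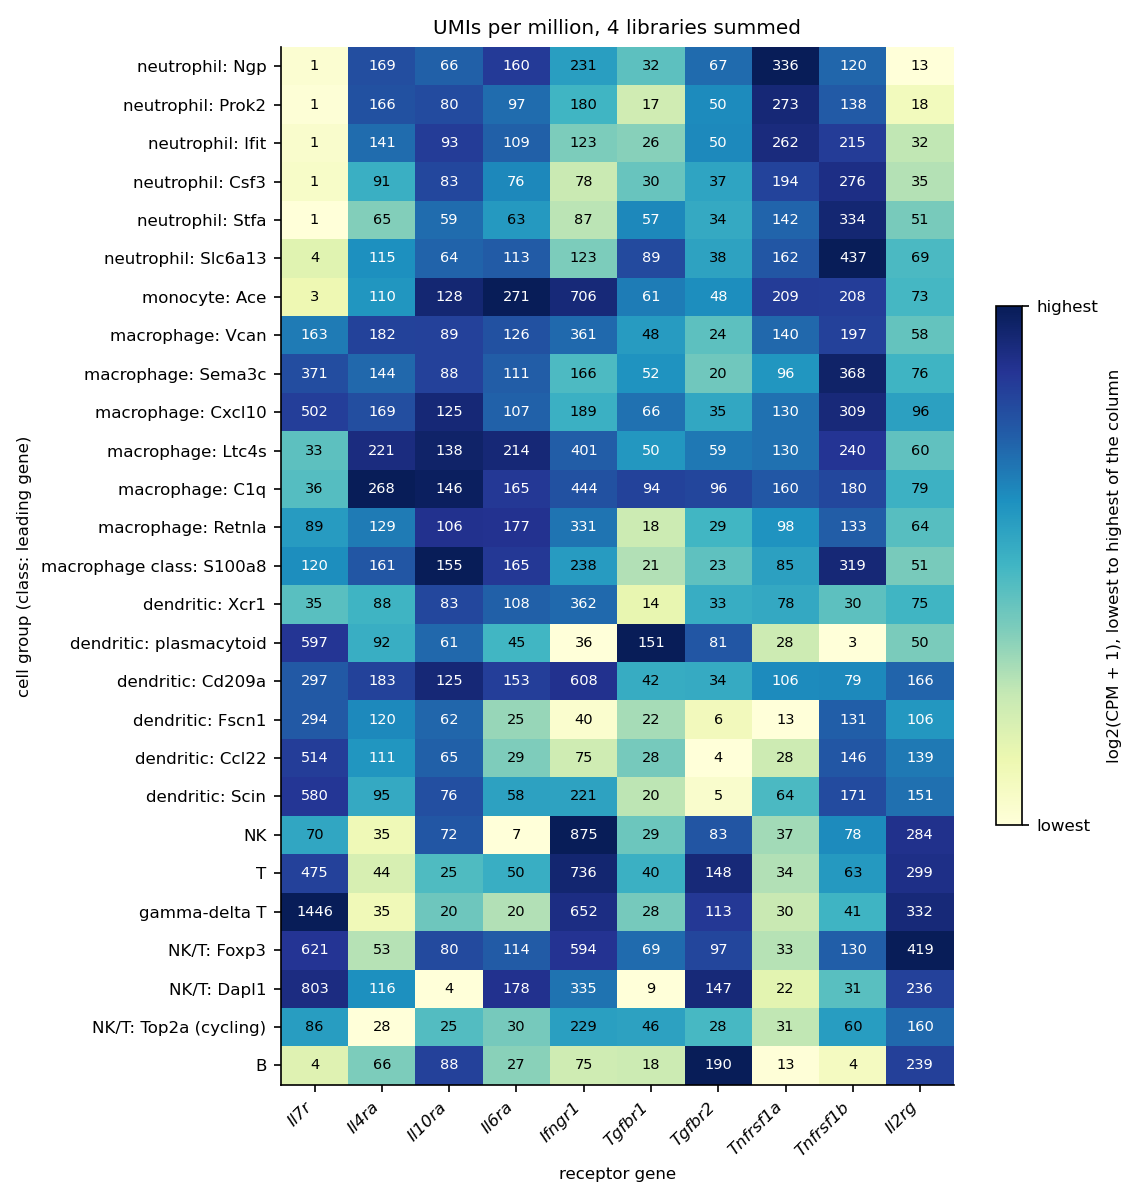
Heat map of the level of each receptor gene (columns) in 27 cell groups (rows, named by class and a leading gene), in CPM over the 4 libraries summed. Numbers are the levels, and the shade runs from the lowest to the highest log2(CPM + 1) of each column. Il7r is at 4.20 CPM or below in all neutrophil-like groups and at 1446 CPM in gamma-delta T-like cells, and over the neutrophil-like groups Tnfrsf1a is darkest in the Ngp-led one, where Tnfrsf1b is palest.

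Within the lymphocytes, Il7r was highest in gamma-delta T-like cells (70 cells led by Cd163l1, Tcrg-C1 and Trdc), at 1446 CPM (1346 to 1551) over the 4 libraries, with a UMI in 69 of the 70. Their levels in the libraries were 2095, 1339, 1451 and 1514 CPM (WT 1 dpw, WT 5 dpw, KO 1 dpw, KO 5 dpw), from 2, 28, 4 and 36 cells. T-like cells were at 475 CPM (429 to 525), cells led by Foxp3 and Ctla4 at 621 CPM, cells led by Dapl1, Lef1 and Cd8b1 at 803 CPM, and NK-like cells at 69.9 CPM (55.7 to 86.7). The 33 plasmacytoid dendritic cell-like cells were at 597 CPM (520 to 682), and the 117 Xcr1 Clec9a dendritic cell-like cells at 34.8 CPM (26.9 to 44.3). These 2 small groups held all 169 Il7r UMIs of the monocyte-like class in WT wounds at 5 dpw, 122 and 47 UMIs, while its Ace-led cells there held 0. The Cd209a-led dendritic cell-like cells (225 cells) were at 538 and 580 CPM at 1 dpw and at 188 and 205 CPM at 5 dpw, WT first. The groups led by Fscn1, Ccl22 and Scin, with markers of mature Ccr7 Fscn1 dendritic cells, were at 294, 514 and 580 CPM over the 4 libraries.

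Within the macrophage-like class, Il7r separated the sub-clusters. In WT wounds at 1 dpw it was at 674 CPM (643 to 705) in cells led by interferon-induced genes and Cxcl10, at 504 CPM (477 to 533) in cells led by Sema3c, Mt2 and Arg1, at 261 CPM in cells led by Vcan and at 70.4 CPM (56.6 to 86.5) in cells led by C1q genes and Gas6. The same order held in KO wounds at 1 dpw, at 743, 534, 153 and 81.4 CPM. Cells led by Ltc4s and Ednrb held 65.2 and 77.9 CPM at 1 dpw, and cells led by Retnla 57.2 and 86.5 CPM, WT first. At 5 dpw the Cxcl10-led cells held 215 and 193 CPM and the C1q-led cells 16.4 and 24.8 CPM, WT first. The Retnla-led cells were not lower at 5 dpw, at 65.5 CPM (53.2 to 79.8) in WT and 129 CPM (109 to 152) in KO wounds, nor were the Vcan-led cells of KO wounds, at 168 CPM (140 to 200.4), against 68.9 CPM (55.3 to 84.9) in WT wounds. The Ltc4s-led cells held 15.6 CPM (10.7 to 21.9) and 39.2 CPM (27.3 to 54.5) at 5 dpw, and the Sema3c-led cells 174 CPM (158 to 191) and 370 CPM (335 to 408), WT first. In these 4 sub-clusters the level of 5 dpw was higher in KO wounds and the intervals of the genotypes did not overlap. Those of the Cxcl10-led and C1q-led cells did overlap. How many of all genes differ in this way within a sub-cluster was not counted, so that no weight rests on it. The intervals also leave out the spread between cells. In WT wounds at 5 dpw the 1152 Il7r UMIs of the class were in 271 of its 1549 cells.

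**Figure D2:**
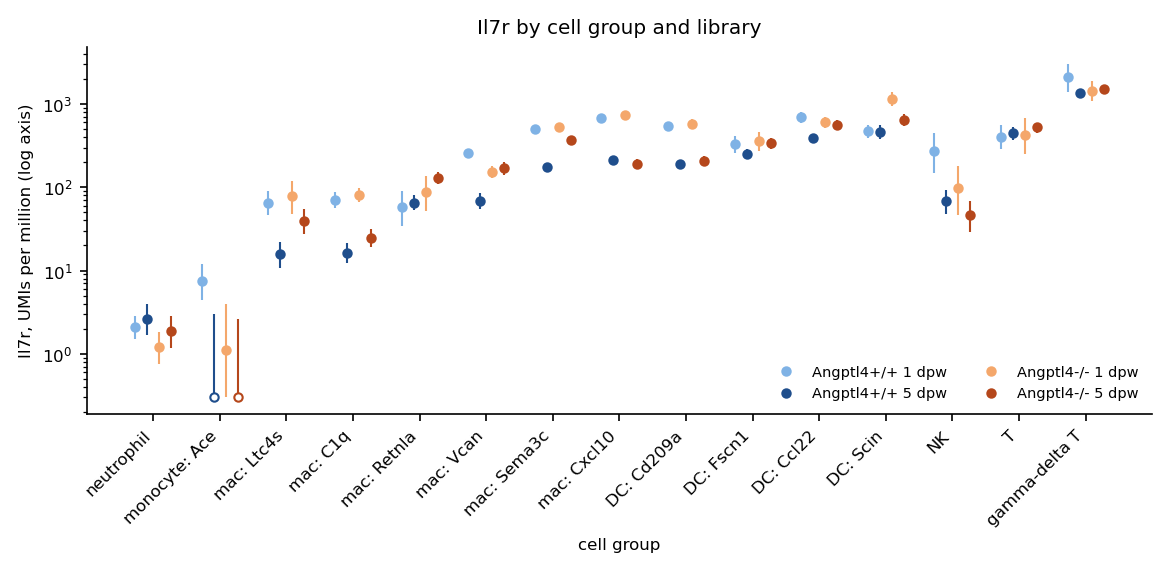
Level of Il7r in CPM (vertical axis, log scale) by cell group (horizontal axis) in each of the 4 libraries. Points are levels, bars exact 95% Poisson intervals, and open points at the foot of the axis are levels of 0. The 2 libraries of 5 dpw (dark points) lie below those of 1 dpw (light points) in the Cxcl10-led, Sema3c-led and C1q-led macrophage-like groups and in the Cd209a-led dendritic cell-like group, but not in Retnla-led or T-like cells, nor in the Vcan-led cells of KO wounds.

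The question of the design is how these levels differed between 1 and 5 dpw and between genotypes. In macrophage-like cells Il7r was lower at 5 dpw by a log2 ratio of -2.21 (-2.31 to -2.11) in WT wounds and of -1.60 (-1.71 to -1.49) in KO wounds, both past the fold. The second receptor gene past the fold was Tgfbr1, which rose in WT wounds, so that 2 of the 10 receptor genes passed it there and 1 of 10 in KO wounds. Of all genes with at least 100 UMIs in the class, 10.9% and 8.09% passed. Leaving out the low-depth cells led by S100a8 gave -2.22 and -1.62 for Il7r, and leaving out the Vcan-led cells -2.26 and -1.81. Transcripts of 5 neutrophil genes stood in macrophage-like cells at a median of 5.51% and 4.52% of their neutrophil-like level at 1 dpw and 1.74% and 1.71% at 5 dpw, WT first, and their part in these differences was not tested. The log2 ratio of KO to WT was -0.05 (-0.13 to 0.03) at 1 dpw and 0.56 (0.44 to 0.69) at 5 dpw. None of the 10 receptor genes passed the fold between the genotypes in macrophage-like cells on either day, against 0.729% of genes at 1 dpw and 1.13% at 5 dpw.

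The make-up of the macrophage-like class moved with the day. The Sema3c-led and the Cxcl10-led cells, where Il7r was high, respectively made up 30.0% and 26.3% of the cells of the class in WT wounds at 1 dpw. At 5 dpw these shares of cells were 23.4% and 13.2%. In KO wounds the Sema3c-led and the Cxcl10-led cells made up 23.6% and 25.3%, then 18.3% and 16.8%. The C1q-led cells were 110 and 330 cells of the class at 1 and 5 dpw in WT wounds, and 112 and 187 cells in KO wounds. When the sub-clusters of 5 dpw were weighted by their share of the UMIs at 1 dpw, the Il7r level of 5 dpw became 131 CPM in WT and 176 CPM in KO wounds. The log2 ratio to 1 dpw was then -1.63 and -1.16, so that Il7r stayed past the fold in both genotypes with the make-up held. Between genotypes at 5 dpw, holding the make-up gave a log2 ratio of 0.75 in place of 0.56. The sub-clusters were drawn from the same cells, and this weighting is a description.

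In dendritic cell-like cells Il7r was at a log2 ratio of day 5 to day 1 of -0.92 (-1.06 to -0.77) in WT and -0.79 (-0.96 to -0.63) in KO wounds, short of the fold. None of the receptor genes with at least 100 UMIs passed it in that class with the day, 0 of 9 in WT and 0 of 8 in KO wounds, against 7.49% and 4.82% of all genes. Between genotypes none passed either, 0 of 8 at 1 dpw and 0 of 10 at 5 dpw, against 1.45% and 1.05%. Sub-cluster shares of the dendritic cell-like class moved with the day. At 1 and 5 dpw, Scin-led cells were 20 of 91 and 21 of 253 in WT and 11 of 67 and 16 of 154 in KO wounds. Fscn1-led cells were 17 and 75 cells in WT and 12 and 37 cells in KO wounds. The part of these shares in the Il7r ratios was not tested. In NK/T-like cells the ratio of Il7r was -0.59 (-0.87 to -0.31) and -0.25 (-0.52 to 0.04), with 35 and 36 cells at 1 dpw. Il4ra and Il6ra passed the fold there, 2 of 8 and 2 of 9 receptor genes with at least 100 UMIs, against 17.5% and 12.9% of all genes. Il4ra went from 81.2 to 34.1 CPM and from 90.0 to 30.9 CPM, and Il6ra from 81.2 to 33.6 CPM and from 83.1 to 34.2 CPM, WT first. The neutrophil transcript S100a8 moved the same way in this class, from 7389 to 1074 CPM and from 6879 to 913 CPM. The make-up of the class moved too. Cells led by the cell cycle genes Hist1h1b, Cenpf and Top2a held 15096 of its 270791 UMIs in WT wounds at 1 dpw and 1043698 of 2347917 at 5 dpw. In KO wounds they held 36009 of 288847 and 1073893 of 2398354 UMIs. The part of S100a8 or of this make-up in these differences was not tested. Between genotypes at 5 dpw 0 of the 10 receptor genes passed the fold in NK/T-like cells, against 1.23% of all genes.

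Il2rg (ENSMUSG00000031304; chromosome X, 101264378 to 101268255, minus strand, overlapped on the same strand by Gm20489) encodes the chain shared by the receptors for IL-2, IL-4, IL-7, IL-9, IL-15 and IL-21. Its highest levels were in lymphocytes, with 306, 234, 225 and 257 CPM in NK/T-like cells and 239 CPM (over all libraries) in B cell-like cells. Dendritic cell-like cells held 139, 141, 141 and 154 CPM, a range in which all 4 intervals overlapped. Macrophage-like cells held 72.4 CPM (66.9 to 78.2), 72.5 CPM (68.0 to 77.3), 88.9 CPM (81.4 to 97.0) and 74.6 CPM (68.6 to 81.0), each series in the order WT 1 dpw, WT 5 dpw, KO 1 dpw and KO 5 dpw. The gene for the partner thus stayed near 72 to 89 CPM in the macrophage-like class over the same libraries in which Il7r ran from 88.1 to 408 CPM. In neutrophil-like cells Il2rg was at 42.6, 27.2, 38.3 and 31.2 CPM in the same order. It was the one receptor gene with a lower level at 5 dpw in that class in both genotypes, at log2 ratios of -0.65 (-0.86 to -0.44) and -0.30 (-0.48 to -0.12), short of the fold.

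Crlf2, the TSLP partner of Il7r, was at 121, 135, 124 and 149 CPM in macrophage-like cells (same order), and it was also at 163 to 221 CPM in neutrophil-like cells, where Il7r was at 1.20 to 2.65 CPM. In thinned macrophage-like cells of WT wounds at 1 dpw, a Crlf2 UMI was found in 8.92% (5.80 to 13.0) of the 269 cells with an Il7r UMI and in 8.45% (6.63 to 10.6) of the 817 cells without. The share with an Il2rg UMI was 6.69% (4.01 to 10.4) against 4.53% (3.21 to 6.19). Ifngr1 was found in 8.92% (5.80 to 13.0) of the cells with an Il7r UMI and in 19.2% (16.6 to 22.1) of those without, and Tnfrsf1b in 26.8% and 22.4%. Within the Sema3c-led and Cxcl10-led cells, pooled, the shares with an Ifngr1 UMI were 8.07% (4.85 to 12.5) of 223 cells with and 11.3% (8.47 to 14.7) of 424 cells without an Il7r UMI. These intervals overlapped, from fewer cells, while the point values ran the same way. All these shares are of WT wounds at 1 dpw, and whether they are alike in the other libraries is not described here. At 1000 UMIs per cell most transcripts are missed, so that these shares cannot say which cells lack a partner. The ligands were scarce in the sorted immune cells, with 30 UMIs of Il7 and 25 UMIs of Tslp over all 4 libraries.

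The TNF receptors separated the neutrophil-like clusters. Tnfrsf1a (ENSMUSG00000030341; chromosome 6, 125349362 to 125362484, plus strand) was at 223, 233, 215 and 249 CPM there, and Tnfrsf1b (ENSMUSG00000028599; chromosome 4, 145213463 to 145246870, minus strand) at 233, 310, 234 and 293 CPM, in the order WT 1 dpw, WT 5 dpw, KO 1 dpw and KO 5 dpw. Over the 6 neutrophil-like clusters the 2 genes ran in nearly opposite order. In point value Tnfrsf1a went up from clusters led by Stfa genes and by Slc6a13 to those led by Csf3, by Ifit genes, by Prok2 and by Ngp, in that order in each of the 4 libraries. Some steps were small and were not tested. In WT wounds the Stfa-led and Slc6a13-led clusters held 159 and 162 CPM at 1 dpw and 136 and 137 CPM at 5 dpw. At 1 dpw the Ifit-led and Prok2-led clusters held 247 and 252 CPM in WT and 237 and 244 CPM in KO wounds. In the cluster led by Ceacam10 and Ngp, the latter a granule protein gene of young neutrophils, Tnfrsf1a was at 369, 341, 276 and 388 CPM, and in the cluster led by Stfa genes at 159, 136, 134 and 132 CPM. Tnfrsf1b was lowest in the Ngp-led cluster in each library, at 108, 170, 77.3 and 166 CPM. It was highest in the cluster led by Slc6a13, Csf1 and Pdcd1lg2, at 420, 432, 474 and 423 CPM, and next highest in the Stfa-led cluster. In point value these clusters thus did not change places between the 2 genes.

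The log2 ratio of Tnfrsf1b UMIs to Tnfrsf1a UMIs was -1.77 (-2.04 to -1.51), -1.01 (-1.30 to -0.71), -1.83 (-2.13 to -1.55) and -1.22 (-1.51 to -0.95) in the Ngp-led cluster. In the Slc6a13-led cluster it was 1.38 (1.25 to 1.51), 1.65 (1.48 to 1.83), 1.51 (1.37 to 1.64) and 1.29 (1.16 to 1.42). The sign of the ratio was negative in the Ngp-led, Prok2-led and Ifit-led clusters and positive in the Csf3-led, Stfa-led and Slc6a13-led clusters, in all 4 libraries. The ratio compares UMIs of 2 genes and not levels per length, so that its sign depends on how well each 3′ end was captured, whereas the order of the clusters does not. The 10 receptor genes were left out of the genes used for clustering, but the clusters come from the same cells, and the pattern is given as a description.

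**Figure D3:**
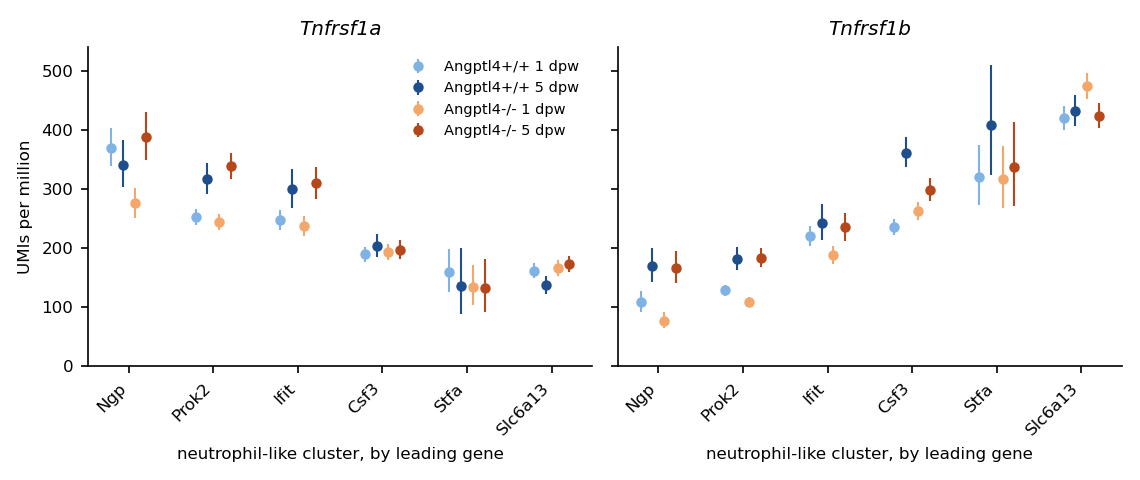
Levels of Tnfrsf1a (left) and Tnfrsf1b (right) in CPM (vertical axis) in the 6 neutrophil-like clusters, named by a leading gene (horizontal axis), in each of the 4 libraries. Points are levels and bars exact 95% Poisson intervals. From the Ngp-led to the Slc6a13-led cluster Tnfrsf1b goes up in every library, from 77.3 to 170 CPM to 420 to 474 CPM. Tnfrsf1a is lowest in point value in the Stfa-led cluster in every library.

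Il2rg and Tgfbr1 were also highest in the Slc6a13-led cluster at 1 dpw. Il2rg was at 91.7 and 84.3 CPM there against 8.60 and 8.59 CPM in the Ngp-led cluster, and Tgfbr1 at 90.7 and 101 CPM against 9.90 and 14.5 CPM in the Prok2-led cluster, WT first. The clusters stood closer at 5 dpw, when Il2rg was at 42.7 and 47.5 CPM in the Slc6a13-led cluster against a lowest level of 10.6 and 19.3 CPM. Tgfbr1 was at 91.2 and 73.6 CPM there at 5 dpw against a lowest level of 26.4 and 28.5 CPM, and in WT wounds it was highest in the Stfa-led cluster, at 99.6 CPM. Ifngr1 was highest in the Ngp-led cluster in all 4 libraries, at 214, 247, 214 and 270 CPM. Il10ra was highest in the Ifit-led cluster in all 4 libraries, at 85.1, 97.6, 77.8 and 132 CPM.

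With the day, Il6ra was the only receptor gene past the fold in neutrophil-like cells. Il6ra (ENSMUSG00000027947; chromosome 3, 89864059 to 89913196, minus strand, with Gm42809 on the opposite strand) rose from 68.6 CPM (65.0 to 72.4) to 159 CPM (150 to 167) in WT wounds and from 66.9 CPM (63.2 to 70.7) to 167 CPM (160 to 174) in KO wounds. The log2 ratios were 1.21 (1.10 to 1.32) and 1.32 (1.22 to 1.42). That is 1 of the 9 receptor genes with at least 100 UMIs in each genotype, against 32.5% and 34.7% of all genes. The median gene of this class stood higher at 5 dpw by 0.66 and 0.69 on the log2 scale, while S100a8, among the most abundant transcripts of neutrophils, went from 70960 to 35840 CPM and from 82620 to 40710 CPM. Relative to the median gene, the log2 ratio of Il6ra was 0.55 and 0.64, short of the fold, and that of Il2rg -1.31 and -0.98, past the fold in WT wounds. Ifngr1, Tnfrsf1a, Tnfrsf1b and Il10ra, whose point values in CPM were higher at 5 dpw, were lower relative to the median gene in both genotypes, and Tgfbr1 in KO wounds. The Ngp-led cluster held the most Il6ra at 5 dpw, 303 and 265 CPM, and the Stfa-led cluster the least, 68.2 and 80.4 CPM. Between genotypes 0 of 9 receptor genes passed the fold in neutrophil-like cells at 1 dpw and 0 of 9 at 5 dpw, against 0.958% and 1.11% of all genes.

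**Figure D4:**
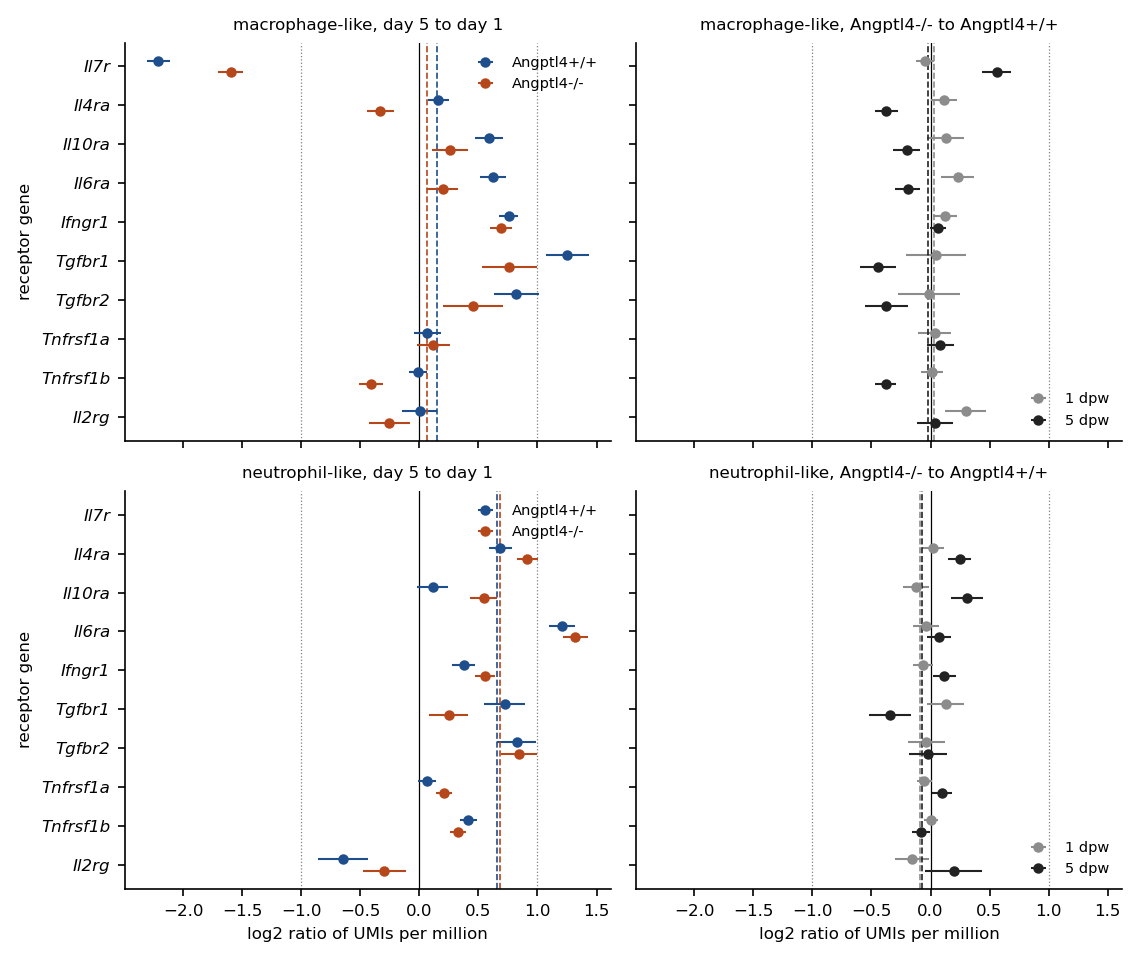
Log2 ratios of the receptor genes (vertical axis) in macrophage-like (top) and neutrophil-like cells (bottom), between days in each genotype (left) and between genotypes on each day (right). Points are ratios of CPM, bars exact 95% intervals of counting error, dotted lines the fold, and dashed lines the median of all genes with at least 100 UMIs, coloured as the points. Il7r in macrophage-like cells (-2.21 and -1.60) lies furthest from 0, no gene passes the fold between genotypes, and the medians of neutrophil-like cells stand at 0.66 and 0.69 between days. Il7r is not drawn for neutrophil-like cells, where it had under 100 UMIs.

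In macrophage-like cells Il6ra was at 110, 169, 129 and 148 CPM (WT 1 dpw, WT 5 dpw, KO 1 dpw, KO 5 dpw), with log2 ratios of the days of 0.62 (0.51 to 0.73) and 0.20 (0.06 to 0.33). Ace-led monocyte-like cells held 264, 258, 276 and 288 CPM of Il6ra, and NK-like cells 6.74 CPM over the libraries. Il6st, which carries the IL-6 signal into the cell, was at 1, 5, 10 and 4 UMIs in neutrophil-like cells, at most 0.58 CPM, and at 29.9 to 38.0 CPM in macrophage-like cells.

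The TGF beta receptors were higher at 5 dpw in macrophage-like cells of both genotypes. Tgfbr1 (ENSMUSG00000007613; chromosome 4, 47353222 to 47414931, plus strand) went from 36.3 CPM (32.5 to 40.5) to 86.4 CPM (81.5 to 91.6) in WT wounds, a log2 ratio of 1.25 (1.07 to 1.43), past the fold. With every cell thinned to 1000 UMIs, the ratio was 0.95, short of it. In KO wounds it was at 37.5 CPM (32.6 to 42.8) and 63.5 CPM (58.0 to 69.4), a ratio of 0.76 (0.53 to 1.00), short of it. Whether the genotypes differed in this change was not tested. Tgfbr2 (ENSMUSG00000032440; chromosome 9, 116084293 to 116175360, minus strand) was at 34.8 and 61.4 CPM in WT and at 34.5 and 47.3 CPM in KO wounds, with ratios of 0.82 (0.63 to 1.01) and 0.46 (0.20 to 0.71), which in thinned cells were 1.54 (0.901 to 2.24) and 1.51 (0.625 to 2.45), past the fold in point value but with wide intervals. At 5 dpw the log2 ratio of KO to WT was -0.45 (-0.60 to -0.29) for Tgfbr1 and -0.37 (-0.56 to -0.19) for Tgfbr2. The C1q-led cells held the most Tgfbr2 of the macrophage-like sub-clusters in every library, at 102, 114, 74.0 and 81.6 CPM (WT 1 dpw, WT 5 dpw, KO 1 dpw, KO 5 dpw). They held the most Tgfbr1 in all but KO wounds at 1 dpw, at 48.5, 133, 41.5 and 89.2 CPM. Weighting 5 dpw by the sub-cluster make-up of 1 dpw left Tgfbr1 at 1.34 and 0.82 and Tgfbr2 at 0.54 and 0.23. In point value Tgfbr2 was highest of all groups in B cell-like cells, at 190 CPM over the libraries, from only 55 cells. It was at 148 CPM in T-like cells, while the Fscn1-led, Ccl22-led and Scin-led dendritic cell-like groups were at 5.74, 3.82 and 4.62 CPM. Tgfbr1 was highest in the plasmacytoid dendritic cell-like cells, at 151 CPM.

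Ifngr1 (ENSMUSG00000020009; chromosome 10, 19591949 to 19610229, plus strand) was at its highest in NK-like cells, at 875 CPM over the libraries, with T-like cells at 736 CPM, Ace-led monocyte-like cells at 706 CPM and gamma-delta T-like cells at 652 CPM. By library, NK-like cells were at 1152, 796, 1038 and 895 CPM (WT 1 dpw, WT 5 dpw, KO 1 dpw, KO 5 dpw), from 9, 77, 14 and 65 cells. T-like cells were at 709, 764, 734 and 721 CPM and Ace-led cells at 694, 663, 753 and 705 CPM in the same order. NK-like cells lay above both in point value in each library, whereas gamma-delta T-like cells, at 698, 551, 1089 and 677 CPM, lay above NK-like cells in KO wounds at 1 dpw, from 4 cells. In macrophage-like cells it was at 211 CPM (202 to 221) and 230 CPM (218 to 243) at 1 dpw, and at 356 CPM (346 to 367) and 372 CPM (358 to 386) at 5 dpw, WT first. The log2 ratios of the days were 0.76 (0.68 to 0.83) and 0.69 (0.60 to 0.79). Both libraries of 5 dpw stood above both of 1 dpw in the Sema3c-led cells (217 and 218 against 117 and 104 CPM, WT first) and in the Cxcl10-led cells (276 and 296 against 125 and 128 CPM). In these 2 sub-clusters Ifngr1 was lower than in the 5 other macrophage-like ones in each library. The ligand Ifng was at 593 UMIs in NK/T-like cells of the 607 in all cells. The Fscn1-led dendritic cell-like cells held 40.2 CPM of Ifngr1 over the libraries, against 608 CPM in the Cd209a-led cells.

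**Figure D5:**
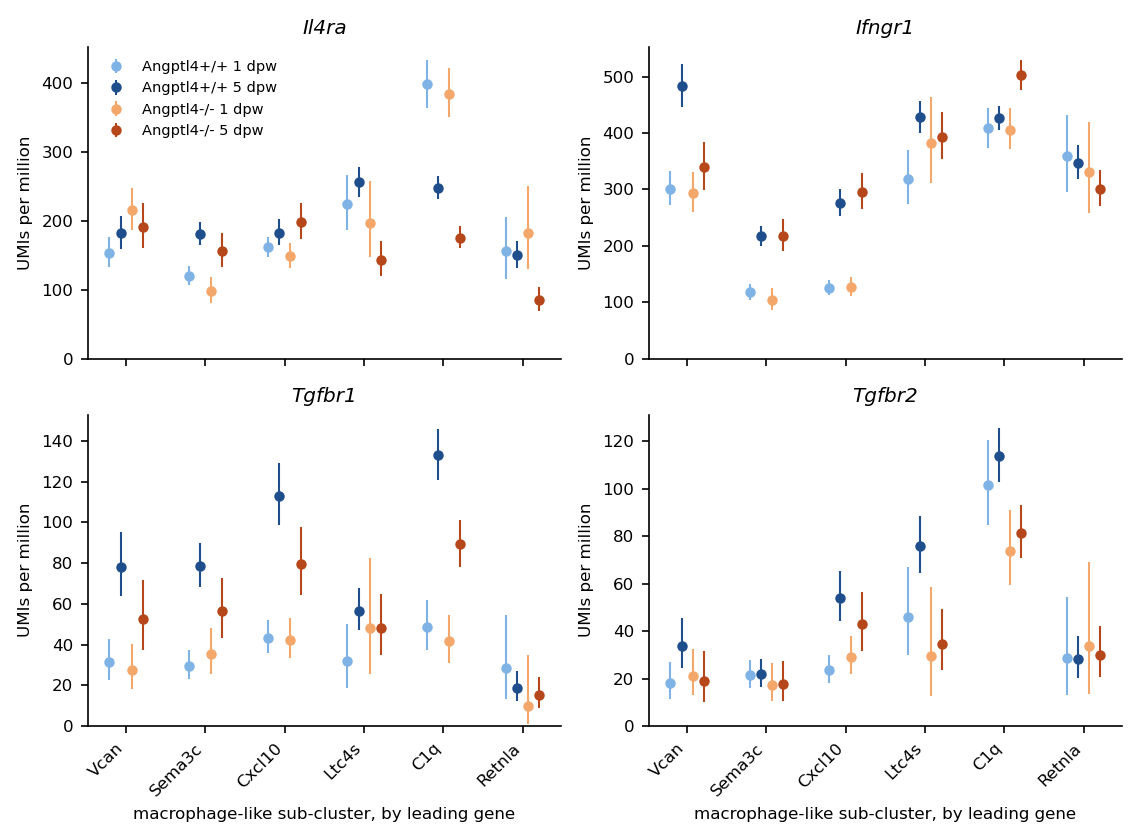
Levels of Il4ra, Ifngr1, Tgfbr1 and Tgfbr2 in CPM (vertical axes) in 6 macrophage-like sub-clusters named by a leading gene (horizontal axes), in each of the 4 libraries. Points are levels and bars exact 95% Poisson intervals. Il4ra in C1q-led cells is at 398 and 385 CPM at 1 dpw and at 248 and 176 CPM at 5 dpw, and Ifngr1 in Sema3c-led and Cxcl10-led cells is higher in both libraries of 5 dpw.

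Il4ra (ENSMUSG00000030748; chromosome 7, 125552120 to 125579474, plus strand, with Gm44876 on the opposite strand) was at 186 CPM (177 to 195), 208 CPM (200 to 216), 202 CPM (190 to 214) and 160 CPM (152 to 170) in macrophage-like cells, in the order WT 1 dpw, WT 5 dpw, KO 1 dpw and KO 5 dpw. The log2 ratio of the days was 0.16 (0.07 to 0.25) in WT and -0.33 (-0.45 to -0.21) in KO wounds. Among the sub-clusters of 1 dpw it was highest in the C1q-led cells, at 398 and 385 CPM, which at 5 dpw held 248 and 176 CPM, WT first. In the Sema3c-led cells it was at 120 and 98.3 CPM at 1 dpw and at 181 and 156 CPM at 5 dpw, the other way. In Ace-led monocyte-like cells it was at 141 and 143 CPM at 1 dpw and at 70.7 and 54.4 CPM at 5 dpw. In neutrophil-like cells it was at 101 and 102 CPM at 1 dpw and at 162 and 192 CPM at 5 dpw, with log2 ratios of 0.69 (0.59 to 0.79) and 0.91 (0.83 to 1.00). NK-like and T-like cells held 35.4 and 43.5 CPM over the libraries, most of their cells being of 5 dpw. As a class, NK/T-like cells held 81.2 and 90.0 CPM at 1 dpw, from 35 and 36 cells. At 5 dpw they held 34.1 and 30.9 CPM, WT first. Il13ra1, the partner for IL-13, was at 145, 90.2, 131 and 77.3 CPM in macrophage-like cells.

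Il10ra (ENSMUSG00000032089; chromosome 9, 45253837 to 45269149, minus strand, overlapped by Mir7086 on the same strand and Gm20612 on the opposite one) encodes the ligand-binding chain of the IL-10 receptor. It was at 93.3, 140, 102 and 122 CPM in macrophage-like cells, with log2 ratios of the days of 0.59 (0.47 to 0.71) and 0.26 (0.11 to 0.41). In neutrophil-like cells it was at 73.0, 78.9, 66.9 and 97.6 CPM, with ratios of 0.11 (-0.02 to 0.24) and 0.55 (0.43 to 0.66). Tnfrsf1a and Tnfrsf1b were at 122 to 135 CPM and 204 to 271 CPM in macrophage-like cells. The lowest Tnfrsf1b value was that of KO wounds at 5 dpw, 204 CPM (194 to 214), against 266 CPM (257 to 275) in WT wounds.

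The other genes of these pathways were counted from lists, beside the same shares of all genes past the fold as above (in macrophage-like cells 10.9% and 8.09% with the day in WT and KO wounds). In macrophage-like cells the partner chains passed the fold with the day in 1 of 8 genes with at least 100 UMIs in WT wounds (Il21r, higher) and in 1 of 8 in KO wounds (Il15ra, lower). In WT wounds Il15ra was at a log2 ratio of -0.996 (-1.456 to -0.542), just short of the fold. Of the 5 and 4 ligands with enough UMIs, Tnf and Il15 fell in both genotypes, by 1.74 and 1.07 on the log2 scale in WT and by 1.07 and 1.11 in KO wounds, and Il6 rose in WT wounds, by 1.57. Of 33 other cytokine receptors, 18 and 19 had enough UMIs, 3 rose and 4 fell in WT wounds, and 2 fell in KO wounds. Tnfrsf26, of the TNF receptor family, fell in both, by 2.34 and 1.43. Of 12 feedback inhibitors with enough UMIs, 3 fell in WT wounds, and 1 fell and 1 rose in KO wounds. Tnfaip3, which restrains NF-kB signalling downstream of TNF receptors, fell in both, by 1.61 and 1.08. Of the 18 signal transducers 1 (Traf1, lower) passed in WT and 0 in KO wounds, and of the 3 genes of receptor shedding with enough UMIs (Adam10, Adam17 and Rhbdf2, a binding partner of Adam17) 0 in either. The median log2 ratio of the 10 receptor genes was 0.38 and 0.16, beside 0.15 and 0.07 over all genes tested. Between genotypes in macrophage-like cells, where 0.729% and 1.13% of all genes passed, 2 genes of these lists passed the fold, 1 on each day. Tnfrsf9, a receptor of the TNF family, was at 133.5 CPM (126 to 141) in WT wounds at 1 dpw and at 25.7, 19.9 and 20.6 CPM in the other libraries (WT 5 dpw, KO 1 dpw, KO 5 dpw). Its log2 ratio of KO to WT was -2.75 at 1 dpw, and it fell by 2.38 with the day in WT wounds. In dendritic cell-like cells these ratios of Tnfrsf9 were -1.51 and -2.07, and in NK/T-like cells that of the days in WT wounds was -1.40. In macrophage-like cells Il10 was higher in KO wounds at 5 dpw, at a log2 ratio of 1.63. Tnfrsf9, Il10, Il21r, Il15ra, Il6 and Traf1 did not pass in both genotypes or on both days, and were named after their values were seen. In neutrophil-like cells, where 32.5% and 34.7% of all genes passed with the day, 1 of 5 partner chains passed in each genotype, Acvrl1, a type I receptor of the TGF beta family, which fell by 1.70 and 1.80. Of the 3 ligands with enough UMIs there, Tgfb1 rose by 1.16 and 1.38 and Tnf fell by 1.10 in both genotypes, beside the medians of all genes given above. Socs3, a feedback inhibitor of JAK and STAT signalling, rose by 1.31 and 1.59 as the 1 of 10 feedback inhibitors past the fold in each genotype. Of 17 signal transducers 4 and 3 rose, among them Smad2 (1.10 and 1.36) and Tradd (1.09 and 1.31) in both genotypes, and of 15 other cytokine receptors 1 and 2, with Il1rl1, the receptor for IL-33, in both (1.11 and 1.73). The median gene of the class stood higher by 0.66 and 0.69. Relative to it, the rises of Tgfb1, Socs3, Smad2 and Tradd were short of the fold in both genotypes, and that of Il1rl1 in WT wounds only. In NK/T-like cells, where 17.5% and 12.9% of all genes passed, 5 of 11 and 6 of 12 feedback inhibitors fell. Socs3, Skil, Tgif1, Tnfaip3 and Nfkbia did so in both genotypes, at log2 ratios from -1.06 to -1.85, and so did the signal transducer Stat3, by 1.29 and 1.21. The fall of S100a8 and the larger share of UMIs from Hist1h1b-led cells in this class, given above, stand beside these values too. Their part in them was not tested. In dendritic cell-like cells Tnf fell in both genotypes, by 1.05 and 1.31.

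The genes whose level was most like that of each receptor were sought over 50 sums of cells, one per cluster and library with at least 50000 UMIs, among 11501 genes. The points share libraries and cells of one class, so that the Pearson r of log2(CPM + 1) is a description. Il7r was most like Dst (0.952), Atp2b4 (0.942) and Pmepa1 (0.937), and among the receptors most like Il2rg (0.687) and Ifngr1 (0.574). Tnfrsf1a was most like Tyrobp (0.929), Gda (0.923) and Cd300ld (0.919), and stood at -0.761 with Il2rg. Tnfrsf1b was most like Fndc3a (0.931), Fbxo30 (0.904) and P4ha1 (0.902). Il2rg was most like Tsix (0.893), Trp53 (0.888) and Hivep2 (0.878), Ifngr1 most like Ndufa13 (0.878), Limk1 (0.871) and Flt3l (0.869), and Il6ra most like Ptpn1 (0.883), Abcd2 (0.864) and Tm6sf1 (0.844). Il4ra was most like Synj1 (0.802), Tgfbr1 most like 4930404N11Rik (0.783), Tgfbr2 most like Ssh2 (0.773) and Il10ra most like Lipe (0.679), the lowest of the 10 leading values.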

How the data were processed

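Live CD45+ cells of skin wounds were profiled in 4 single-cell libraries, 1 for each genotype and day. The deposited values are counts of UMIs per gene and cell barcode, which the authors made with Cell Ranger 3.1.0 on mm10 and analysed with Seurat 3.0, per the labels and the study's methods. From these counts, only barcodes on which 200 or more genes were detected, with no more than 10% of UMIs mitochondrial, were kept. Libraries hold 26981596 to 32962595 UMIs, and 48 barcodes occurred in more than 1 library. Cells were integrated with Seurat 5.3.0 (R 4.3.3) on 2000 variable genes without the 10 receptor genes, over 30 dimensions, clustered at resolution 0.5, and classed by marker genes. Doublets (top 4% of a score against simulated doublets) were kept, and left out as an alternative. UMIs were summed per class and library in Python 3.11.15 (NumPy 2.4.6, SciPy 1.17.1, pandas 2.3.3). Levels carry exact Poisson, shares exact Clopper-Pearson and ratios exact conditional binomial 95% intervals, which cover counting error only. Those of the ratios were tried on counts simulated with Poisson error, the model they assume, which does not test the spread between cells. Ratios were counted among genes with at least 100 UMIs in the 2 libraries of a comparison. The text names the 10 receptor genes, the listed genes past the fold in both genotypes, partner chains of a named receptor, and the genes most like each receptor. The receptor genes and lists were chosen with earlier results of these data known. Gene positions are those of GENCODE M21 (GRCm38). Alternatives changed the cell filter, doublets, shared barcodes, integration, resolution, variable genes, depth, scaling, class limits and minimum UMIs. Leaving out the sub-cluster led by S100a8, or that led by Vcan, was chosen after seeing the data.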

Additional observations from a re-analysis of the deposited data

Results flagged for a closer look

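In macrophage-like cells Il4ra had differences of opposite sign in the genotypes. Its log2 ratio of day 5 to day 1 was 0.16 (0.071 to 0.249) in WT and -0.331 (-0.447 to -0.214) in KO wounds. The log2 ratio of KO to WT was accordingly 0.117 (0.007 to 0.225) at 1 dpw and -0.374 (-0.472 to -0.276) at 5 dpw. With the sub-cluster make-up held, these were 0.072 and -0.209 between the days (WT first) and -0.032 and -0.38 between the genotypes (1 dpw first), so that the sign of KO to WT was then the same on both days. The median gene of the class stood at 0.149 between the days in WT wounds and at 0.026 between genotypes at 1 dpw. Both lie inside the intervals of Il4ra, so that relative to the median gene these values have no clear sign.

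In the same class the log2 ratio of KO to WT for Il6ra was 0.232 (0.092 to 0.37) at 1 dpw and -0.194 (-0.299 to -0.09) at 5 dpw. Il10ra in neutrophil-like cells had a ratio of -0.125 (-0.237 to -0.015) at 1 dpw and of 0.307 (0.171 to 0.445) at 5 dpw. Holding the make-up gave 0.173 and -0.219 for Il6ra. In each of these pairs both intervals of counting error leave out 0, on opposite sides. This depends on the scaling for Il10ra. The median gene of neutrophil-like cells stood at -0.089 between genotypes at 1 dpw, inside the interval of Il10ra. All values are short of the fold, each group is 1 library, and the difference between the paired values was not tested.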

How the results depend on the processing

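No paired analysis was possible because each group is 1 library. The log2 ratio of day 5 to day 1 for Il7r in macrophage-like cells stayed past the fold in both genotypes under every alternative run, and that of genotypes stayed short of it. The stricter cell filter (at least 500 genes, at most 5% mitochondrial UMIs) gave -1.78 for the days in KO wounds and 0.075 for the genotypes at 1 dpw, and resolution 1.0 gave -1.786 and 0.036. Leaving out the Vcan-led sub-cluster gave -1.807 and 0.032. The stricter filter and resolution 1.0 left a cluster with Vcan among its leading genes (286 and 311 cells) without a class. At resolution 1.0 a cluster led by Retnla (579 cells) was classed as dendritic cell-like. These settings are thus not separate from leaving out the Vcan-led cells. Thinning to 1000 UMIs gave -2.11 and -1.412 for the days (WT first) and 0.146 and 0.844 for the genotypes (1 dpw first). Centring on the median gene gave -2.358 for the days in WT wounds. Taking monocyte-like and macrophage-like cells together gave -1.876 and -1.461 for the days and -0.143 and 0.272 for the genotypes. The cause of these shifts was not tested. At 1 dpw the Il7r ratio of genotypes thus had no stable sign. For the other receptor genes, 28 of 288 alternative values in neutrophil-like and 44 of 396 in macrophage-like cells moved outside the reported interval, and 3 in each class changed sides of the fold, as given with Il6ra, Il2rg, Tgfbr1 and Tgfbr2. The sign changed in 18 of the 288 and in 25 of the 396 values. With a minimum of 20 in place of 100 UMIs, the share of genes past the fold between genotypes was 2.89% and 3.77% in macrophage-like and 3.86% and 4.11% in neutrophil-like cells (1 dpw first). With 1 library per group, the spread between animals is not measured, and groups of under 40 cells, such as NK/T-like cells at 1 dpw, have wide intervals.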
